A study of Mus musculus with 18 samples.

Results

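The induced pluripotent stem (iPS) cell line IP14D-101 was compared with the embryonic stem (ES) cell line R1, with all 3 arrays of each line, 6 of the 18 arrays of the series. The arrays were chosen by the line name in their titles. IP14D-101 carries the strain label B6 x 129S2 F1 and R1 the label 129X1/SvJ x 129S1 F1, so both hold 129 alleles and only IP14D-101 holds B6 alleles. Both lines were grown with LIF, the cytokine that keeps mouse ES cells self-renewing, on fibroblast feeders stopped from dividing with mitomycin C, in medium with fetal serum or a serum replacement. The other 4 lines, used below for their levels and for a further comparison, were the iPS lines IP14D-1, IP20D-3 and IP36D-3 and the ES line ESC2, all of strain B6 x D2 F1 and grown under the same protocol. The labels do not say which of the 2 media either line had. Each cell type was 1 line here, so cell type, strain, medium and line cannot be told apart. Total RNA was hybridised to Affymetrix expression arrays, and each probe set value is an RMA intensity. The series' design text calls the 3 arrays of a line biological replicates. No label says whether they came from separate cultures, so p-values measure the spread between these arrays, which may be technical.

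Mouse ES cells come from the epiblast of the blastocyst and iPS cells are somatic cells reset to the same pluripotent state by reprogramming factors. Cultures of either kind can hold cells that drift towards the primitive endoderm, the neighbouring lineage of the blastocyst, which lays down a basement membrane and takes up proteins by endocytosis. Lines also differ in imprinted genes, which are transcribed from 1 parental allele under marks that culture and reprogramming can disturb, and in genes whose alleles differ between mouse strains.

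Every level below is a log2 intensity and every difference is IP14D-101 minus R1 in log2 with its standard error from limma, a linear model with moderated variances. A gene was called at a limma adjusted p under 0.05 and an absolute log2 difference of at least 1. Of 18193 genes tested, 459 were called (2.52%), 127 higher in IP14D-101 (0.698%) and 332 lower (1.82%). All 459 genes with a difference of at least 1 also passed the p threshold, so the size of the difference set the count. At an adjusted p under 0.05 alone, 4395 genes differed. The arrays of the 2 lines did not overlap for 126 of the genes called higher and 332 of those called lower, and for 33.9% of all genes. Among the 15 pairs of lines in the series, IP14D-101 and R1 had the smallest root mean square difference over all genes, 0.378. The median difference over all genes was 0.00, and the median of each array lay near 4.9. The files give no detection calls, so how far levels under that median exceed background is unknown, and fold sizes that involve them are less certain. That holds for R1 in 38 of the genes called higher and for IP14D-101 in 99 of those called lower.

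Array 3 of IP14D-101 stood apart from the other 2 arrays of its line. Its mean correlation with them was 0.994, against 0.995 to 0.997 for the other 5 arrays with their own line, and limma's array weights gave it 0.29. Leaving it out, 141 genes were higher and 340 lower, and 114 and 311 of these were the same genes. The beta-actin 3' over 5' signal ratio was 1.12 to 1.17 in IP14D-101 and 1.12 to 1.13 in R1.

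**Figure D1:**
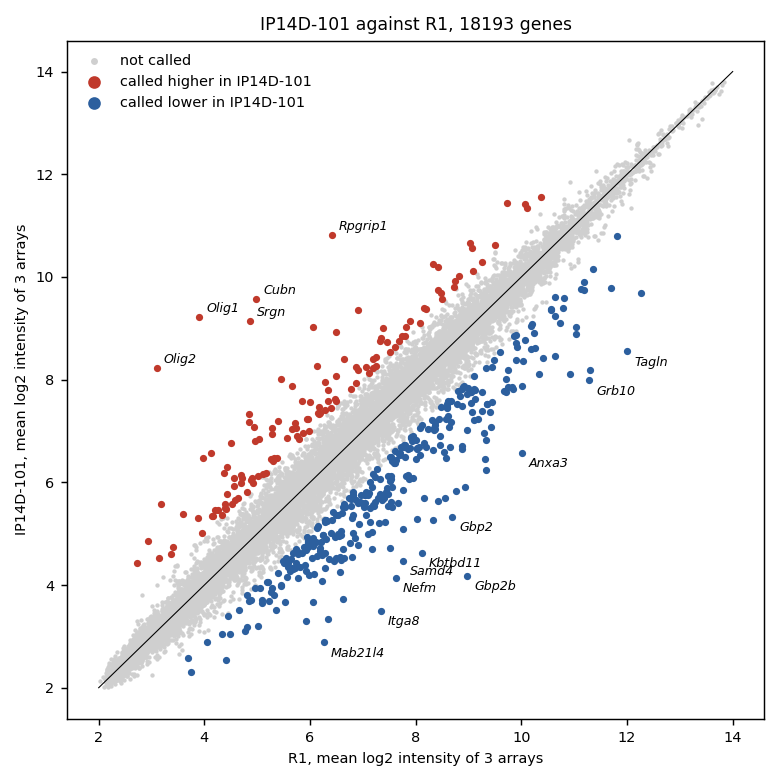
Mean log2 RMA intensity of 18193 genes in IP14D-101 (vertical axis) against R1 (horizontal axis), 3 arrays each. Coloured points are the 127 genes called higher and the 332 called lower in IP14D-101, and the line marks equal levels.

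The levels of the other 4 lines show which member of the pair lay further from them. All 4 carry the label B6 x D2 F1, so they share B6 alleles with IP14D-101 and not with R1. IP14D-1, IP20D-3 and IP36D-3 are also iPS lines, so the 4 are no neutral reference for the pair. Of the 127 genes higher in IP14D-101, R1 lay at least 1 log2 below the means of all 4 other lines for 38, and IP14D-101 lay at least 1 above all 4 for 23. Of the 332 genes lower in IP14D-101, R1 lay at least 1 above all 4 others for 73, and IP14D-101 lay at least 1 below all 4 for 23. The remaining 66 and 236 genes showed neither pattern. Among the 12 largest rises R1 stood apart for 6 and IP14D-101 for 5, and among the 12 largest falls R1 stood apart for 8 and IP14D-101 for 3. These counts describe the levels and were not tested.

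The largest rises were a pair of neural transcription factor genes on chromosome 16. Olig1 and Olig2 encode basic helix-loop-helix factors of the oligodendrocyte and motor neuron lineages. Olig1 stood at 9.22, 9.11 and 9.32 in the IP14D-101 arrays, against 4.08, 3.90 and 3.71 in the R1 arrays, a difference of 5.32 ± 0.10 (39.9-fold, adjusted p = 8.21e-17). Olig2 stood at 8.20, 8.05 and 8.41 in the IP14D-101 arrays, against 2.74, 3.10 and 3.45 in the R1 arrays, a difference of 5.12 ± 0.13 (34.8-fold, adjusted p = 8.76e-15). In both genes the arrays of the lines lay far apart, with R1 under the array median. The 4 other lines also had both transcripts, with line means of 7.82 to 9.22 for Olig1 and 6.90 to 7.36 for Olig2, so R1 alone was low. Of 14 measured neuroectoderm genes, these 2 were higher and 1 was lower, the intermediate filament gene Nes with -1.33 ± 0.10. The list's median was 0.12.

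Several other large rises also had R1 alone at the low end. Rpgrip1, which encodes a protein of the photoreceptor cilium, stood at 10.91, 10.91 and 10.63 in the IP14D-101 arrays, against 6.30, 6.40 and 6.52 in the R1 arrays (4.41 ± 0.08), and the other lines lay between 10.67 and 11.57. Of its 3 other probe sets, all with a mean under 6, 1 shared the direction. Cyct, the testis form of cytochrome c, stood at 9.08, 8.99 and 9.02 in the IP14D-101 arrays, against 6.14, 6.08 and 5.97 in the R1 arrays (2.97 ± 0.08). The lines other than R1 had Cyct means of at least 7.83. Apoa2, an apolipoprotein of high-density lipoprotein, differed by 2.57 ± 0.11, and Nlrp4f, of a family known from oocytes, by 2.51 ± 0.13. R1 was the lowest line in both genes.

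**Figure D2:**
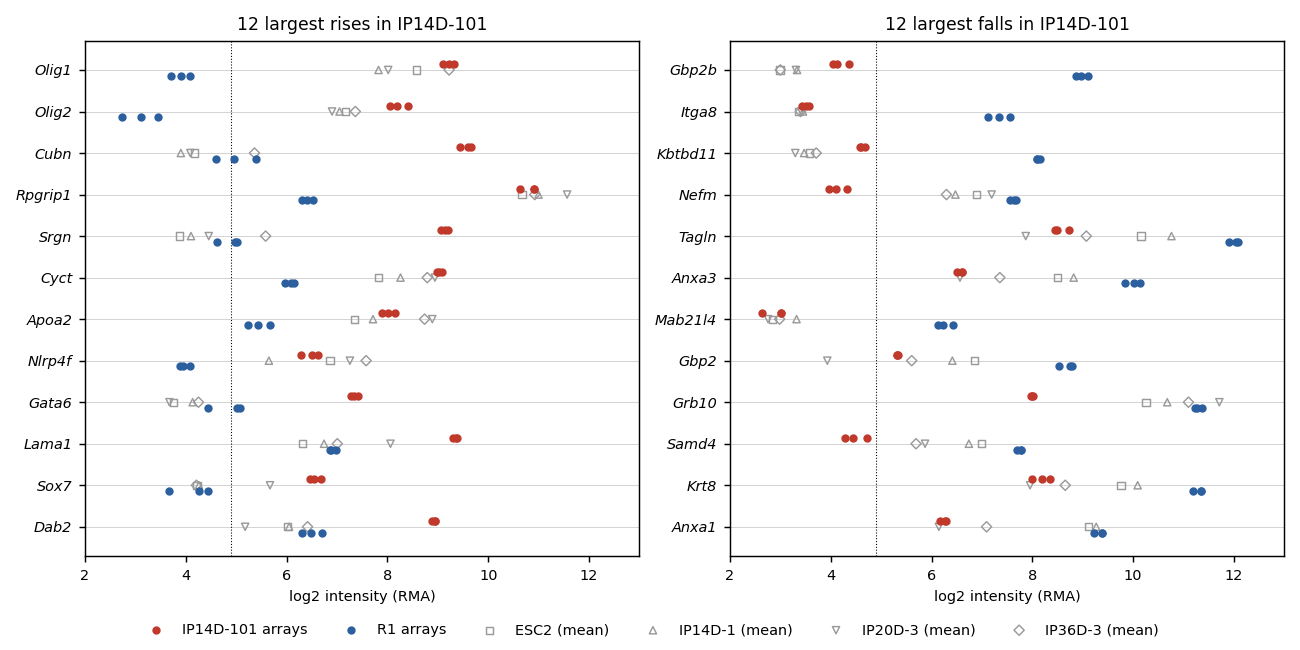
Log2 RMA intensity of the 12 largest rises (left) and 12 largest falls (right) in each IP14D-101 array (red) and R1 array (blue), with the means of the 4 other lines as open grey symbols and the array median (4.9) as a dotted line. Olig1, Olig2, Rpgrip1 and Cyct are low in R1 alone, Cubn, Srgn, Gata6 and Dab2 are high in IP14D-101 alone, and Grb10 and Nefm are low in IP14D-101 alone.

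Genes of the primitive and visceral endoderm were higher in IP14D-101. Of 24 measured members 12 were higher, 1 was lower and 11 were not called, with a list median of 1.01 against 0.00 over all genes. Transcription factors that specify the lineage were among them. Gata6 stood at 7.33, 7.27 and 7.42 in the IP14D-101 arrays, against 4.44, 5.07 and 5.02 in the R1 arrays (2.49 ± 0.18, adjusted p = 1.33e-08). Sox7 stood at 6.55, 6.47 and 6.68 in the IP14D-101 arrays, against 4.43, 4.26 and 3.67 in the R1 arrays (2.44 ± 0.18). Gata4 and Sox17 differed by 1.83 ± 0.11 and 1.82 ± 0.15. R1 lay under or near the array median in all 4 genes.

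Endocytic receptors and matrix genes of the same lineage moved with these factors. Cubn encodes cubilin, the receptor for vitamin B12 and lipoproteins on visceral endoderm. It stood at 9.66, 9.43 and 9.59 in the IP14D-101 arrays, against 4.60, 5.39 and 4.95 in the R1 arrays (4.58 ± 0.16, 23.9-fold). Amn, which anchors cubilin in the membrane, differed by 1.16 ± 0.13, and Dab2, the endocytic adaptor, by 2.43 ± 0.11, and its other 3 probe sets were also higher. Srgn, a proteoglycan core protein, stood at 9.15, 9.19 and 9.07 in the IP14D-101 arrays, against 4.61, 4.98 and 5.01 in the R1 arrays (4.27 ± 0.15). The platelet-derived growth factor receptor gene Pdgfra, a surface marker of primitive endoderm, differed by 1.20 ± 0.11.

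The basement membrane genes Lama1 (laminin alpha 1), Col4a2 and Col4a1 (collagen IV) completed the rises of the list. Lama1 stood at 9.35, 9.31 and 9.38 in the IP14D-101 arrays, against 6.97, 6.87 and 6.86 in the R1 arrays (2.44 ± 0.07). Col4a2 differed by 1.44 ± 0.18 and Col4a1 by 1.20 ± 0.08. Of 18 measured basement membrane genes, these 3 and the collagen hydroxylase P4ha1 (1.01 ± 0.10) were higher, 0 were lower and the list median was 0.21. Fst, the activin antagonist follistatin, was the 1 endoderm member that was lower, with -1.41 ± 0.17.

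Markers of later visceral endoderm were not called. Ttr stood at a mean of 5.37 in IP14D-101 and 5.36 in R1, Afp at 3.94 and 4.06, Hnf4a at 5.61 and 5.68, and Foxa2 at 4.18 and 3.40. Among the 18 endoderm markers used to check the cell type, 11 were higher and 0 lower. All 11 are among the 12 rising list members above and Fst is not a marker, so this count is no separate support. The summed linear intensity of the 18 markers was 7623 to 8141 in the IP14D-101 arrays and 4544 to 4861 in the R1 arrays. The 12 pluripotency markers summed to 48820 to 49260 in IP14D-101 and 42820 to 43580 in R1, with 0 called, and all 12 lay above the array median in both lines. In bulk RNA, more cells of a type and more RNA per cell cannot be told apart. Cubn, Srgn, Gata6, Lama1, Dab2, Col4a1 and Col4a2 were also at least 1 log2 higher in IP14D-101 than in each of the 4 other lines. Sox7 was not, with a mean of 6.57 in IP14D-101 and 5.67 in IP20D-3. IP20D-3 also had more Lama1 than ESC2, with means of 8.06 and 6.32. The promoter windows of 7 of the 12 rising members were in the RefSeq table, and 1 of these 7 (Dab2) held the GATA factor motif AGATAA on either strand, against 11.2% of all promoter windows.

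**Figure D3:**
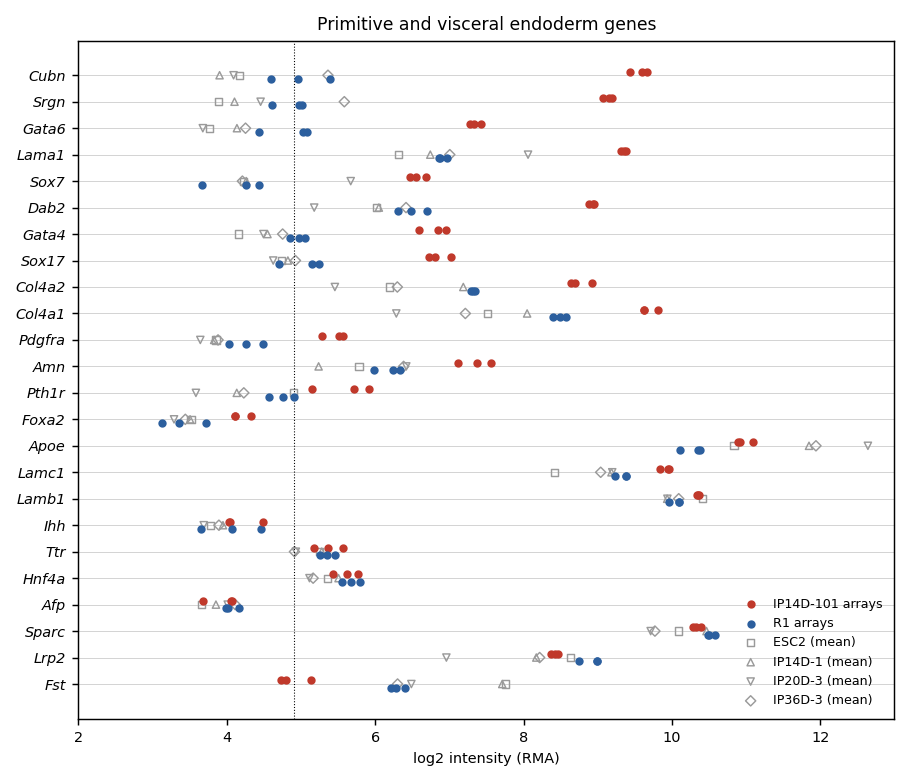
Log2 RMA intensity of the 24 measured primitive and visceral endoderm genes in each IP14D-101 array (red) and R1 array (blue), with the means of the 4 other lines in grey and the array median (4.9) dotted. The upper 12 genes are called higher in IP14D-101, and Fst at the bottom is called lower.

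Imprinted genes were lower in IP14D-101 or not called. Outside the Dlk1-Dio3 region 8 of 38 measured genes were lower and 0 higher, with a list median of -0.22. Grb10, which encodes an adaptor that restrains insulin-type growth signalling, stood at 7.97, 8.01 and 7.99 in the IP14D-101 arrays, against 11.23, 11.36 and 11.27 in the R1 arrays. Its difference was -3.30 ± 0.08 (9.83-fold, adjusted p = 8.21e-15), and 2 of its 2 other probe sets went the same way. The 4 other lines had Grb10 means of 10.26 to 11.71, so IP14D-101 alone was low. Plagl1, a zinc finger factor that restrains growth, differed by -1.89 ± 0.14, and the Polycomb-related Sfmbt2 by -1.70 ± 0.10. Without probe sets whose names end in _s_at or _x_at, which can match several transcripts, Plagl1 was not called. That setting was added after seeing the data, and it kept probe sets ending in _a_at, such as that of Grb10.

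The paternally expressed Peg10, of retrotransposon origin, stood at 6.50, 6.79 and 6.30 in the IP14D-101 arrays, against 7.90, 8.34 and 8.01 in the R1 arrays (-1.56 ± 0.16). Here R1 had the highest level of the 6 lines, and the 4 other lines ranged between 3.85 in ESC2 and 6.02 in IP14D-1. The growth factor gene Igf2 differed by -1.33 ± 0.13, and again R1 was the highest line, at a mean of 8.36. IP14D-101 had an Igf2 mean of 7.03, and the 4 other lines lay between 6.24 and 7.01. The signal peptide peptidase gene H13 differed by -1.31 ± 0.09, and 4 of 5 further H13 probe sets were lower. The other 2 calls were Ndn and Sgce, at -1.13 and -1.0.

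In the Dlk1-Dio3 region on chromosome 12, 2 of 4 measured transcripts were lower. Rian, a maternally expressed noncoding RNA, stood at 6.20, 6.17 and 5.99 in the IP14D-101 arrays, against 7.70, 7.41 and 8.34 in the R1 arrays (-1.70 ± 0.18). The paternally expressed Dlk1 stood at 6.85, 6.93 and 7.30 in the IP14D-101 arrays, against 8.32, 8.16 and 8.54 in the R1 arrays (-1.31 ± 0.13). Without probe sets ending in _s_at or _x_at Dlk1 was not called. R1 had the highest Dlk1 level of all lines. The means of the other lines ran from 5.22 in IP20D-3 to 7.19 in IP14D-1, with 7.02 in IP14D-101. Meg3, the other long noncoding RNA of the maternal allele, had 9.87, 10.11 and 9.14 in the IP14D-101 arrays, against 10.22, 10.28 and 10.06 in the R1 arrays, a difference of -0.48 ± 0.16 without a call. Array 3 of IP14D-101 was the lowest of the 6 arrays for Meg3. Mirg, the microRNA host transcript, differed by -0.76 ± 0.17 without a call.

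Among genes that set or protect DNA methylation, 3 of 12 were higher and 0 lower, with a median of 0.43. The de novo methyltransferase gene Dnmt3a stood at 10.17, 10.24 and 10.37 in the IP14D-101 arrays, against 8.48, 8.31 and 8.16 in the R1 arrays (1.94 ± 0.12), and 4 of its 4 other probe sets shared the direction. The 5-methylcytosine dioxygenase gene Tet1 stood at 11.66, 11.70 and 10.95 in the IP14D-101 arrays, against 9.71, 9.97 and 9.51 in the R1 arrays (1.71 ± 0.15). Dppa3, which shields imprints from demethylation in the early embryo, stood at 8.40, 8.42 and 8.37 in the IP14D-101 arrays, against 6.61, 6.62 and 6.71 in the R1 arrays (1.75 ± 0.07). R1 was the lowest of the 6 lines in Tet1 and Dppa3. Dnmt3b (mean 11.18 in IP14D-101 and 11.64 in R1), Dnmt3l (11.33 and 10.82) and Zfp57 (9.57 and 8.86) were not called, and 0 of 14 Polycomb genes were called.

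Interferon response and MHC class I genes were lower in IP14D-101, with 7 of 25 measured members lower, 0 higher and a list median of -0.54. Guanylate-binding proteins are interferon-induced GTPases that attack intracellular pathogens, and their genes lie side by side on chromosome 3. Gbp2b stood at 4.05, 4.13 and 4.36 in the IP14D-101 arrays, against 8.86, 9.11 and 8.97 in the R1 arrays (-4.80 ± 0.13, 27.8-fold, adjusted p = 1.16e-14). Its neighbour Gbp2 stood at 5.32, 5.32 and 5.33 in the IP14D-101 arrays, against 8.53, 8.75 and 8.79 in the R1 arrays (-3.36 ± 0.13), and Gbp3 differed by -1.85 ± 0.18. R1 was the highest of the 6 lines in all 3 genes.

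The related GTPase gene Irgm1 stood at 5.97, 5.35 and 5.36 in the IP14D-101 arrays, against 7.28, 7.19 and 7.10 in the R1 arrays (-1.63 ± 0.16). ESC2 had the highest Irgm1 mean, 8.19. The immunoproteasome subunit gene Psmb8 differed by -1.53 ± 0.12, and Tapbp, which loads peptide onto MHC class I, by -1.28 ± 0.09. The seventh call was the MHC class I gene H2-D1 (-1.28 ± 0.08). Other antigen presentation genes had negative differences without a call, among them B2m (mean 8.18 in IP14D-101 and 9.0 in R1), Tap1 (6.02 and 6.83) and H2-K1 (8.25 and 8.89). The interferon-induced Ifit1 lay under the array median in both lines, at 2.84 and 2.76.

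The promoters of these GTPase genes are shown because all 4 hold the core pattern of the interferon-stimulated response element, GAAA followed by any 2 bases and a further GAAA, read on either strand, where interferon-activated STAT and IRF factors are known to bind. The 180 bases before the RefSeq start site (GRCm38.p6, given on the gene's strand) are printed with every match in capitals, and matches that overlap run together.
Gbp2b (chr3:142594667-142594846, strand +): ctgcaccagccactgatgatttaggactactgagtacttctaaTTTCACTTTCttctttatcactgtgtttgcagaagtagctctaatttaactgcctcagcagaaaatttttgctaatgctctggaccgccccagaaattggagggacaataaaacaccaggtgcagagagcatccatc
Gbp2 (chr3:142620483-142620662, strand +): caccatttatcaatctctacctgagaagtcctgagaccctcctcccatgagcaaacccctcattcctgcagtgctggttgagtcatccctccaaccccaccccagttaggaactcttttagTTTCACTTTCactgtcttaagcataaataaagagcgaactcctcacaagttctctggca
Gbp3 (chr3:142559864-142560043, strand +): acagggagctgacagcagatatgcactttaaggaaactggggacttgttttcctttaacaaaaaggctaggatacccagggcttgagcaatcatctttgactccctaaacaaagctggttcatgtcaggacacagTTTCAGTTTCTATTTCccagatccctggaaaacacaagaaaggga
Irgm1 (chr11:48871421-48871600, strand -): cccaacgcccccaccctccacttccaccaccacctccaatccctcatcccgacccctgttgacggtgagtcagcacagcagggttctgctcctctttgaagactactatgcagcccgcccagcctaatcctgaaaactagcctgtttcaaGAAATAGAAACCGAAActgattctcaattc
The pattern was in 3.44% of the 32851 promoter windows of the table (250 bases before to 50 after a start). It was in 4 of the 7 members of the list called lower, all of which had a window, and in 8 of 16 members with a window that were not called. A match describes the letters of the B6 reference sequence and was not tested as a site.

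**Figure D4:**
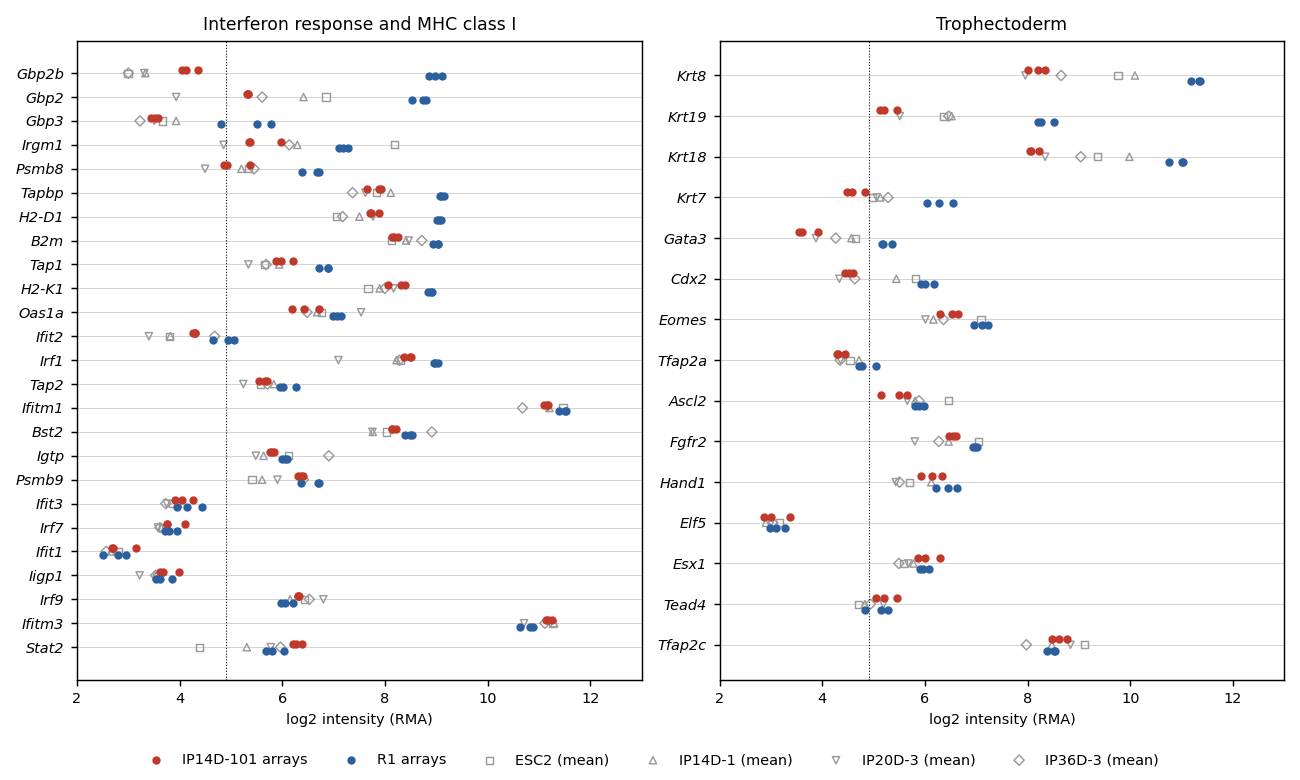
Log2 RMA intensity of the 25 interferon response and MHC class I genes (left) and the 15 trophectoderm genes (right) in each IP14D-101 array (red) and R1 array (blue), with the means of the other 4 lines in grey and the array median (4.9) dotted, in order of the difference. Gbp2b, Gbp2 and the keratins at the top stand furthest apart, with R1 higher.

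The keratin genes Krt8, Krt18, Krt19 and Krt7 were lower in IP14D-101. Of 15 trophectoderm genes, named for the outer epithelium of the blastocyst, 6 were lower and 0 higher, with a median of -0.50. Krt8 stood at 8.20, 8.0 and 8.35 in the IP14D-101 arrays, against 11.18, 11.35 and 11.34 in the R1 arrays (-3.11 ± 0.14, 8.64-fold). Its filament partner Krt18 stood at 8.06, 8.04 and 8.22 in the IP14D-101 arrays, against 10.76, 11.0 and 11.02 in the R1 arrays (-2.82 ± 0.16). Krt19 and Krt7 differed by -3.07 ± 0.13 and -1.66 ± 0.15. R1 was the highest of all lines in Krt8, Krt18, Krt19 and Krt7. IP20D-3 had means of 7.95, 8.34 and 5.51 in Krt8, Krt18 and Krt19, close to 8.18, 8.11 and 5.26 in IP14D-101. The 2 transcription factors among the calls, Cdx2 (-1.51 ± 0.11) and Gata3 (-1.54 ± 0.14), had low levels, with means of 4.52 and 3.69 in IP14D-101 and 6.03 and 5.23 in R1. Elf5 and Tfap2c, also factors of that lineage, were not called. The 6 trophectoderm markers used to check the cell type had 3 calls, all lower. These were Cdx2, Gata3 and Krt7, which are already counted above. The 6 markers summed to a linear intensity of 153.0 to 168.0 in IP14D-101 and 281.1 to 320.9 in R1, where 5 and 2 of them lay under the array median.

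Tagln, the smooth muscle actin-binding protein transgelin, stood at 8.44, 8.48 and 8.73 in the IP14D-101 arrays, against 11.90, 12.05 and 12.08 in the R1 arrays (-3.46 ± 0.12). Anxa3 stood at 6.61, 6.51 and 6.60 in the IP14D-101 arrays, against 9.85, 10.02 and 10.14 in the R1 arrays (-3.43 ± 0.21), and Anxa1 at 6.28, 6.26 and 6.17 in the IP14D-101 arrays, against 9.22, 9.39 and 9.39 in the R1 arrays (-3.09 ± 0.19), but the dimmer second Anxa1 probe set had the opposite sign. The annexins bind membrane phospholipids in the presence of calcium. IP20D-3 had levels close to those of IP14D-101 in Tagln (7.87), Anxa3 (6.56) and Anxa1 (6.14). The contractile genes Acta1 (-2.93 ± 0.14), Cnn1 (-2.86 ± 0.19) and Myl9 (-2.16 ± 0.11), named after their values were seen, were also lower.

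Of 34 fibroblast and feeder genes, 4 were lower and 0 higher, with a median of -0.11. These were Tagln, the matrix glycoprotein gene Thbs1 (-2.47 ± 0.13), Ccn1 (-1.20 ± 0.09) and Timp3 (-1.17 ± 0.12). The 10 markers used to check for feeder RNA had 0 calls, and their summed linear intensity was 201.6 to 222.2 in IP14D-101 and 230.5 to 248.5 in R1. Of these 10, 9 lay under the array median in IP14D-101 and 6 in R1. Col1a1 stood at a mean of 4.88 in IP14D-101 and 4.99 in R1, Col1a2 at 4.96 and 5.06, and Col3a1 at 3.69 and 3.64. Of 13 blood and endothelial genes 0 were called.

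Other large falls came from unrelated families. Itga8, an integrin subunit that binds extracellular matrix, stood at 3.56, 3.43 and 3.51 in the IP14D-101 arrays, against 7.33, 7.55 and 7.12 in the R1 arrays (-3.83 ± 0.13). Kbtbd11 stood at 4.68, 4.61 and 4.58 in the IP14D-101 arrays, against 8.10, 8.09 and 8.16 in the R1 arrays (-3.49 ± 0.16), and Mab21l4 differed by -3.37 ± 0.10. In these 3 genes R1 alone was high, and the other 4 lines lay between 2.76 and 3.71. Nefm, a neurofilament subunit of neurons, stood at 3.97, 4.11 and 4.33 in the IP14D-101 arrays, against 7.67, 7.64 and 7.55 in the R1 arrays (-3.48 ± 0.09). Samd4, an RNA-binding repressor of translation, stood at 4.29, 4.43 and 4.71 in the IP14D-101 arrays, against 7.70, 7.77 and 7.78 in the R1 arrays (-3.28 ± 0.11). For Nefm and Samd4 it was IP14D-101 that lay below all 5 other lines.

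Signalling genes moved in both directions. The inhibitors of differentiation Id1, Id2 and Id3 are textbook targets of bone morphogenetic proteins, and all 3 were lower. Id3 stood at 8.0, 7.63 and 8.01 in the IP14D-101 arrays, against 10.02, 9.98 and 10.04 in the R1 arrays (-2.13 ± 0.14), Id2 differed by -1.96 ± 0.09 and Id1 by -1.37 ± 0.16. The ligand gene Bmp4 had a mean of 7.85 in both lines. Lefty1 and Lefty2, secreted inhibitors of Nodal, were higher, Lefty1 with 11.33, 11.20 and 11.49 in the IP14D-101 arrays, against 10.06, 10.13 and 10.11 in the R1 arrays (1.24 ± 0.13) and Lefty2 with 1.26 ± 0.18. Of 21 genes of the Nodal, TGF-beta and BMP list, 2 were higher and 4 lower with a median of 0.00, the fourth being Fst.

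Of 26 Wnt genes, 4 were lower and 3 higher, with a median of -0.11. The lower ones were the Wnt target gene Sp5, at 5.56, 5.31 and 6.06 in the IP14D-101 arrays, against 8.27, 8.38 and 8.60 in the R1 arrays (-2.78 ± 0.15), and the ligand genes Wnt4 (-1.87 ± 0.16), Wnt8a (-1.56 ± 0.16) and Wnt3 (-1.29 ± 0.16). The higher ones included 2 secreted Wnt inhibitors, Sfrp1, at 8.24, 8.23 and 8.25 in the IP14D-101 arrays, against 6.80, 6.87 and 6.94 in the R1 arrays (1.37 ± 0.08), and Dkk1 (1.17 ± 0.13), with the receptor gene Fzd5 at 1.02 ± 0.10. Wnt3 and Dkk1 were near or under the array median. Of 16 primitive streak and mesoderm genes, 3 were lower (Cdx2, Wnt3 and the ligand gene Fgf8 with -1.15 ± 0.16). Of 18 FGF and ERK genes, 3 were lower, Fgf8, the FGF carrier gene Fgfbp1 (-1.40 ± 0.11) and the phosphatase gene Dusp4 (-1.21 ± 0.10).

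The main pluripotency factors were not called. Pou5f1, the central pluripotency factor, had 12.56, 12.62 and 12.59 in the IP14D-101 arrays, against 12.64 in each of the R1 arrays (-0.05 ± 0.08, adjusted p = 0.712). Nanog differed by 0.02 ± 0.08, Sox2 by 0.37 ± 0.08, Klf4 by 0.86 ± 0.07 and Myc by -0.02 ± 0.09, none of which was called. Klf4 (limma adjusted p = 4.87e-08) and Sox2 (0.00153) passed the p threshold and missed the call by the size of the difference. Of 33 core and naive pluripotency genes 2 were higher, where 0.698% of all genes were, and 0 were lower, with a median of 0.19. These were Dppa3 and Gbx2, a homeobox gene downstream of LIF, at 9.57, 9.50 and 9.66 in the IP14D-101 arrays, against 8.48, 8.53 and 8.50 in the R1 arrays (1.07 ± 0.15). Esrrb, an orphan nuclear receptor of the naive state, had a mean of 10.34 in IP14D-101 and 9.48 in R1 without a call.

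Of 15 LIF and STAT3 response genes 3 were higher and 1 lower. The LIF receptor gene Lifr stood at 9.01, 8.80 and 8.46 in the IP14D-101 arrays, against 7.67, 7.73 and 7.64 in the R1 arrays (1.08 ± 0.10), and without array 1 of IP14D-101 it was not called. The feedback inhibitor gene Socs3 differed by 1.12 ± 0.14, and the AP-1 subunit gene Junb by -1.04 ± 0.12. Junb was not called without array 2 of either line. Of 16 primed epiblast genes, which mark the later pluripotent state, 3 were higher (Dnmt3a, Lefty1 and Lefty2) and 1 lower, the POU factor gene Pou3f1 (-1.29 ± 0.14).

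Of 17 immediate-early genes 4 were lower and 0 higher, with a median of -0.39. They were Atf3, at 4.60, 4.52 and 4.97 in the IP14D-101 arrays, against 6.70, 6.50 and 6.65 in the R1 arrays (-1.92 ± 0.23), Jun, at 6.16, 5.93 and 6.13 in the IP14D-101 arrays, against 7.77, 7.98 and 7.90 in the R1 arrays (-1.81 ± 0.09), Fosl1 (-1.38 ± 0.11) and Junb, all subunits or partners of the AP-1 factor. Atf3 was the 1 call among 26 genes of endoplasmic reticulum and amino acid stress, whose median was -0.06. Of 19 p53 targets and cell-cycle inhibitors 2 were lower, the adhesion gene Perp (-2.21 ± 0.08) and the kinase gene Plk2 (-1.50 ± 0.13), whose second probe set had the opposite sign.

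Of 24 glycolysis and hypoxia genes 4 were higher and 0 lower, with a median of 0.27. Bnip3, which drives removal of mitochondria, stood at 10.52, 10.62 and 10.57 in the IP14D-101 arrays, against 9.16, 9.08 and 8.98 in the R1 arrays (1.50 ± 0.10). The oxygen-sensing hydroxylase gene Egln3 differed by 1.28 ± 0.17, the kinase gene Pdk1, which shuts pyruvate out of the citric acid cycle, by 1.03 ± 0.12, and P4ha1 as above. Slc2a1, the main glucose transporter, had a mean of 12.13 in IP14D-101 and 12.02 in R1 without a call. Pdk1 and P4ha1 lay so near the threshold that each lost its call in some of the alternatives. Of 19 cholesterol synthesis genes 1 was higher, the sterol sensor gene Insig1 (1.04 ± 0.13), and of 24 metallothionein and oxidative defence genes 1 was higher, Mt1 (1.35 ± 0.10). Mt1 was not called without probe sets ending in _s_at or _x_at.

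Of 22 germline genes 2 were lower, Mael of the piRNA pathway (-1.10 ± 0.10) and Sycp3 of the meiotic chromosome axis (-1.09 ± 0.18). Sycp3 was not called without array 3 of IP14D-101. Of 8 measured two-cell-stage genes 2 were lower, the deubiquitinase gene Usp17la (-2.30 ± 0.15) and the arginase gene Arg2 (-1.61 ± 0.11). None of 26 Hox, 12 heat shock, 7 X-inactivation centre and 4 reprogramming factor genes was called.

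The Y-linked translation factor gene Eif2s3y had 7.40, 7.42 and 6.97 in the IP14D-101 arrays, against 7.81, 8.13 and 7.87 in the R1 arrays, above the array median in both lines. Uty stood at 5.03, 5.56 and 4.45 in IP14D-101 and at 5.46, 5.64 and 5.46 in R1. Kdm5d, Usp9y and Zfy2 lay under the array median in both lines. Of the 6 measured Y-linked genes Uba1y was called lower (-1.14 ± 0.15), and it was not called without array 2 of IP14D-101. Xist, the RNA that silences an X chromosome, differed by -0.18 ± 0.18.

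A further comparison asked whether the difference between these lines recurred between iPS and ES lines labelled B6 x D2 F1. The mean of IP14D-1, IP20D-3 and IP36D-3 minus ESC2 shares no array with IP14D-101 minus R1. It gave 569 called genes (3.13%), 324 higher (1.78%) and 245 lower (1.35%). Of the 127 genes higher in IP14D-101, 16 were higher there too, which is 12.6% of the 127 and 4.94% of the 324. Of the 332 lower genes, 60 were lower there too, 18.1% of the 332 and 24.5% of the 245. A further 3 and 8 were called in the opposite direction. The test of the difference between the 2 differences called 880 genes (4.84%), 316 higher (1.74%) and 564 lower (3.1%). With each array's median set equal, the split was 438 higher and 450 lower for the difference and 237 and 312 for the B6 x D2 lines, and with repeated quantile normalisation it was 383 and 475, and 243 and 271. Among the 880 were 72 of the 127 higher and 196 of the 332 lower genes.

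Among the endoderm genes, 1 of the 24 was called higher and 0 lower in the B6 x D2 lines, with a median of 0.06. Cubn differed there by 0.28 and Gata6 by 0.26, and the tests of the difference gave 4.30 ± 0.21 and 2.24 ± 0.24. Grb10 differed by 0.91 in the B6 x D2 lines, so that the 2 differences were apart by -4.20 ± 0.11. Of the endoplasmic reticulum and amino acid stress genes, 14 of 26 were higher and 2 lower in the B6 x D2 iPS lines (median 1.10), against 0 higher and 1 lower in IP14D-101 minus R1. Genes lower in both comparisons included Thbs1 (-1.86 in the B6 x D2 lines), Sfmbt2 (-1.51), Usp17la (-2.07) and Anxa1 (-1.61). These values are means over the B6 x D2 iPS lines, which did not always move together. In Thbs1 and Anxa1, IP14D-1 (7.71 and 9.27) was not below ESC2 (7.64 and 9.11), and only IP20D-3 and IP36D-3 were. In Sfmbt2 and Usp17la each of the iPS lines lay below ESC2.

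**Figure D5:**
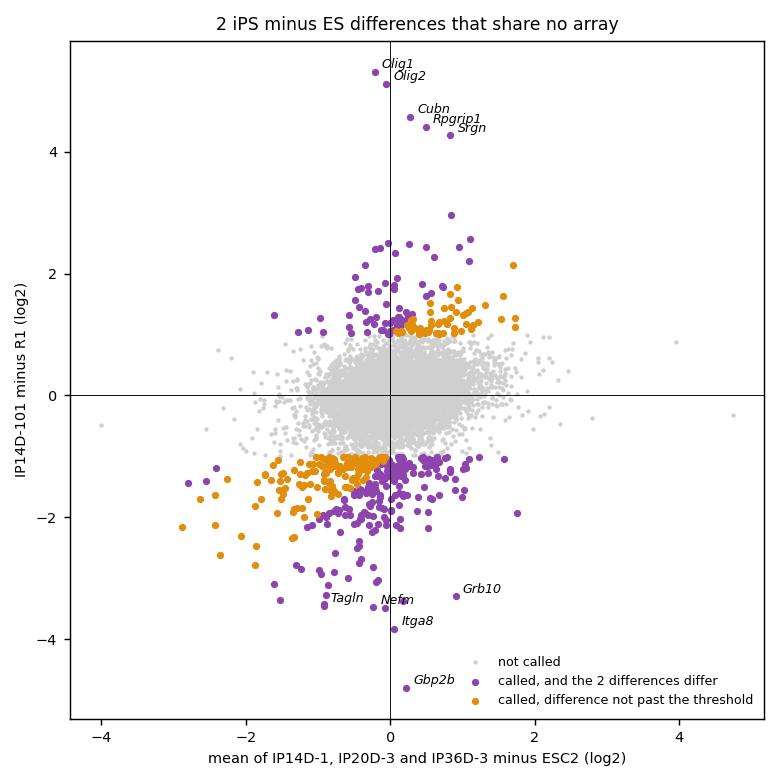
Log2 difference of IP14D-101 minus R1 (vertical axis) against the mean of IP14D-1, IP20D-3 and IP36D-3 minus ESC2 (horizontal axis) for 18193 genes. Coloured points are the 459 genes called in IP14D-101 minus R1, in purple where the 2 differences differ by the test, and the 10 named genes lie within 1 of 0 on the horizontal axis.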

How the data were processed

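Total RNA of 6 mouse pluripotent cell lines, 3 arrays each, was measured on Affymetrix arrays. The deposited values are linear probe set intensities that the authors made with RMA, according to the submitters' processing notes. RMA corrects background, equalises array distributions and summarises probes, so values are comparable across arrays and low levels are compressed. No version of RMA is stated by the labels or headers. Array medians were 29.2 to 30.5. The number of arrays limits the precision. Intensities were taken to log2. Of 45101 probe sets, 64 controls were left out, 932 with several symbols and 9160 with none were not named, and 34945 with 1 symbol in GEO's platform annotation gave 18193 genes, each read from the brightest of its probe sets over 18 arrays. Of the 34945, 34741 were found by gene identifier in RefSeq (GRCm38.p6), and 0 symbols changed. The steps were run in limma 3.58.1 (R 4.3.3) and Python 3.11.15 (numpy 2.4.6, pandas 2.3.3, matplotlib 3.10.9).

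Line means were fitted over all 18 arrays (12 residual degrees of freedom), with Benjamini-Hochberg adjustment over 18193 genes. The text names the 12 largest rises and 12 largest falls among called genes with a mean of at least 6 in the higher line, no overlap of arrays and no clone symbol. It also names up to 6 called members of each of 31 lists, the reprogramming factors, Nanog, Xist, the Dlk1-Dio3 transcripts and the Y-linked list. The comparison, lists and rules were chosen with earlier results of these data known, so list counts and medians are given without a test. Listed genes without a probe set of 1 symbol were not analysed here. In a simulation over 18193 genes, IP14D-101 was given each gene's R1 mean, with independent noise of that gene's pooled spread. The contrast of IP14D-101 with R1 recovered 100% of 100 genes changed by 1.5 and 100% of 100 changed by 2.5 in log2, with 0 false calls. Both changes lay well past the threshold, and the noise held no deviations shared within an array. The simulation therefore checks that the steps ran, and cannot tell how reliable calls near the threshold are. Same-numbered arrays of the lines had deviations from the line means that correlated at -0.00262, 0.208 and 0.255, so the numbers were not taken as pairs. The alternatives covered the choice of probe set, a pseudocount, a filter on level, array scaling and weights, the call rule, the replicate block and each array left out.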

Additional observations from a re-analysis of the deposited data

Results flagged for a closer look

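For the genes below, the difference of IP14D-101 minus R1 differed from that of the B6 x D2 F1 iPS lines minus ESC2 by at least 2 in log2 and at a limma adjusted p under 0.05. They are the genes named by the rule of the report that met this, and other genes met it too. The values are the first difference minus the second. Lines and strains change together in this comparison. Positive values were found for the neural factor genes Olig1 (5.54) and Olig2 (5.18), the endoderm genes Cubn (4.30), Srgn (3.44), Dab2 (2.57) and Gata6 (2.24), and the ciliary gene Rpgrip1 (3.92). Others were those of Nlrp4f (2.54), Dnmt3a (2.42), Egln3 (2.25), Gbx2 (2.21), Dppa3 (2.20) and Cyct (2.13). Meg3 had 3.52, and it was low in IP20D-3 and IP36D-3, at means of 5.23 and 5.90.

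Negative values were found for Gbp2b (-5.02), the imprinted Grb10 (-4.20) and Peg10 (-2.58), Itga8 (-3.89), Mab21l4 (-3.54), Kbtbd11 (-3.42) and Nefm (-3.24). The stress factor gene Atf3 (-3.68) was lower in IP14D-101 than in R1 and higher in the B6 x D2 iPS lines than in ESC2, as was Junb (-2.13). The keratin genes had -2.87 (Krt19), -2.58 (Krt18) and -2.25 (Krt8). Negative values also came from Tagln (-2.53), Anxa3 (-2.50), Samd4 (-2.39) and Id3 (-2.21).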

How the results depend on the processing

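The count of genes called in IP14D-101 minus R1 (127 higher and 332 lower) depended on the features tested and the call rule. All probe sets with 1 symbol gave 228 and 514, and an adjusted p under 0.05 alone gave 2213 and 2182. A pseudocount of 16, which shrinks differences at low levels, gave 78 higher and 224 lower. With it the B6 x D2 iPS lines minus ESC2 gave 197 higher and 135 lower, the difference between the 2 comparisons 205 and 354, and the immediate-early list 2 lower in place of 4. Genes with a mean of at least 6 gave 153 lower in the B6 x D2 lines. The fit with the replicate block gave 127 and 332, the same genes, and only the 6 arrays gave 126 and 332, a change of 1 gene. Neither fit alters a log2 difference in this balanced design, and the size of the difference set the count. These 2 counts could therefore hardly change. Same-numbered arrays did not all correlate, so the block is no evidence of pairing. Leaving out each array of the pair in turn gave 129 to 149 higher and 313 to 340 lower, with 286 to 399 and 536 to 613 for the difference between the comparisons. Endoderm calls ranged from 12 to 13, imprinted from 6 to 8, interferon stayed at 7 and trophectoderm at 6. The Nodal, TGF-beta and BMP and the Wnt lists stayed at 4 lower, and the basement membrane, glycolysis and immediate-early lists gave 3 to 4 and the fibroblast list 4 to 5. The differences of 4 genes without a call changed sign. Leaving out each array, Kdm5d ranged between -0.0712 and 0.196, Myc between -0.0744 and 0.0171, Nanog between -0.039 and 0.0944 and Xist between -0.358 and 0.105. With array weights Kdm5d was -0.0208 and Xist 0.0225. The sign of Myc turned without IP14D-101 array 1 or 2 or R1 array 1, that of Nanog without R1 array 3 and that of Kdm5d and Xist without IP14D-101 array 3. Over the named genes, 1419 values kept direction and call and 29 values of 18 genes lost the call. With the pseudocount these included Arg2, Dkk1, Fgf8, Fosl1, Gata3, Insig1, Mael, Timp3 and Wnt3. Signal near background limits the size of differences at low levels.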

Other observations

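Genes that lie next to each other on a chromosome were called together in 27 pairs among 18032 measured genes with a RefSeq position, 24 of them in the same direction and 3 in opposite directions. Over all genes 2.52% were called, 127 higher and 332 lower, so some such pairs arise from the call rate alone. Whether the pairs exceed that number was not tested. Some pairs are known to share regulation or descent, such as Olig2 with Olig1, Krt8 with Krt18, Lefty2 with Lefty1, Col4a1 with Col4a2, Gbp3 with Gbp2b and Gbp2, and the imprinted Sgce with Peg10. The pairs also included Nefl (-1.63) with Nefm, the carbonic anhydrase genes Car3 (-1.70) and Car2 (-2.59), and the chemokine genes Cxcl10 (-1.95) and Cxcl11 (-1.02). Perp was called together with the NF-kappaB inhibitor gene Tnfaip3 (-1.63). Mab21l4 and its neighbour Sned1 (-2.05) on chromosome 1 were lower together. These genes were named after their values were seen.

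The calls were spread over the chromosomes. On the autosomes and the X chromosome, between 1.87% (chromosome 11) and 3.61% (chromosome 3) of the measured genes were called. The median difference of a chromosome lay between -0.04 (chromosome 8) and 0.04 (chromosome 10) over all genes, and between -0.07 and 0.09 for genes with a mean of at least 6 in either line. On the X chromosome 17 of 617 genes were lower and 1 was higher, where 1.82% and 0.698% of all genes were. In both directions together 2.92% of the X-linked genes were called, against 2.52% of all genes.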
